A study of Homo sapiens with 8 samples.

Results

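The genes described here are 42 genes of the G1/S transition and DNA replication, taken as a named list, in human chordoma cell lines treated with TNF-α. Each gene was read through probe sets (groups of probes for 1 transcript) that carry exactly 1 gene symbol. A probe set of that kind was present for 41 of the 42, out of 22395 genes on the array, and each of the 41 had a single one; CDKN2C had none and is not analysed here. Of the 41, 38 exceeded 2.57, the midpoint (median) of the deposited table, on 1 or more arrays and were tested, among 16986 genes tested in all. The 38 comprise 25 replication genes and 13 G1/S genes.

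RNA was measured on 8 whole-transcript arrays of MUG-Chor1 and U-CH1, cell lines grown from chordomas, rare bone tumours with features of the notochord. MUG-Chor1 TNF (1 array) and U-CH1 TNF (1 array) are cells given 10 ng/mL human recombinant TNF-α, an inflammatory cytokine, in 3 additions a week for 1 week. MUG-Chor1 control (3 arrays) and U-CH1 control (3 arrays) are cells grown without it, and all groups were monolayers on gelatin in serum-containing medium. The labels give no genotype, and they do not say whether the 3 controls of a line are separate cultures, so the p-values below reflect the spread of these arrays alone, which may be technical. Each line is 1 tumour's cells, and a line's single TNF array has no spread of its own.

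In a dividing cell, D-type cyclins with CDK4 or CDK6, and then E-type cyclins with CDK2, phosphorylate the retinoblastoma protein RB1, which releases E2F transcription factors. E2F1, E2F2 and E2F3 turn on genes for licensing origins (loading the MCM helicase with ORC1, CDC6 and CDT1), for the replication fork and for making nucleotides, while E2F7 and E2F8 repress them. INK4 proteins such as CDKN2A and CDKN2B block CDK4 and CDK6, and the locus of CDKN2A is known to be lost in many chordomas.

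Promoters are shown because E2F proteins are the known regulators of many of these genes. The 8-letter E2F-type motif TTTNNCGC, which reads GCGNNAAA on the other strand, was searched on both strands in the RefSeq promoters of build GRCh38.p14, from 250 bases before to 50 bases after each start, overlapping matches included. At least 1 match was present for 15 of the 23 replication genes in that table (65.2%), for 3 of the 12 G1/S genes (25%), and for 2246 of all 27305 genes there (8.23%). Counted over promoters of the same 300 bases instead of genes, 19 of 50 promoters of the listed genes (38.0%) and 2418 of all 35116 (6.89%) held a match. The table has no entry for CCND1, CCND2, CCNE2, CDK2, E2F8, MCM4 and MCM5. The 4 promoters below show a regulator with many matches, a licensing gene with paired matches, the licensing gene whose values varied most among controls, and the E2F gene that differed between lines; capitals mark the matches.
E2F1, chr20:33686336-33686635, minus strand: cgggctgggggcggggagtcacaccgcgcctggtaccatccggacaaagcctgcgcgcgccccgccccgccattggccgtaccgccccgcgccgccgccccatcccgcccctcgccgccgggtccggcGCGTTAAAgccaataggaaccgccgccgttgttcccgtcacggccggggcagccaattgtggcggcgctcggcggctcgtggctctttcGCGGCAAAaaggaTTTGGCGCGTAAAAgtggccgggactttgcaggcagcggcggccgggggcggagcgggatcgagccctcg
MCM6, chr2:135876394-135876693, minus strand: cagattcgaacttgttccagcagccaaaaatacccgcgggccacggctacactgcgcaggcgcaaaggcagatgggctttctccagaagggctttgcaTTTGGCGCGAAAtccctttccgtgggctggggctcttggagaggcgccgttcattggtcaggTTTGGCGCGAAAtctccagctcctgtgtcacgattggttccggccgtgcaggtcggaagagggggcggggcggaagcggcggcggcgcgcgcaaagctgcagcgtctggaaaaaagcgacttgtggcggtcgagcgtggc
CDC6, chr17:40287629-40287928, plus strand: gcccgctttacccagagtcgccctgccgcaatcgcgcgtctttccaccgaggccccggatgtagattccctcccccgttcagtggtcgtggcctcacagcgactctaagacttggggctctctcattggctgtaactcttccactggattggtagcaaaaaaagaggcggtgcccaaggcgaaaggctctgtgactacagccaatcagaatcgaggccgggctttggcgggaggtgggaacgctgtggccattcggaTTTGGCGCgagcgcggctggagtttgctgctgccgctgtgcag
E2F3, chr6:20401629-20401928, plus strand: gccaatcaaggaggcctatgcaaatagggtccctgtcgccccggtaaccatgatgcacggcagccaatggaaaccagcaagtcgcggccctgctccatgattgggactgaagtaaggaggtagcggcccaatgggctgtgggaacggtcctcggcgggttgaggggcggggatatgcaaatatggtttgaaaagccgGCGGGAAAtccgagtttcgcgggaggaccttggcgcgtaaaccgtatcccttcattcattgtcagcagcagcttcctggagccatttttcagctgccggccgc
The E2F1 promoter holds 4 matches, and the MCM6 promoter holds 4 that form 2 overlapping pairs, beginning 152 and 90 bases before the start. CDC6 has 1 match, 7 bases after the start, and E2F3 has 1, 53 bases before it, at 1 of its 2 starts. CCNE1 and MCM10 had no match, which says only that these letters are not in this window. The table's only window for RB1, counted among the 12, lies inside the gene far from the start that RefSeq's gene table gives, so it is not read here as the RB1 promoter.

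Values are the deposited RMA values, taken as log2, so a difference of 1 is a 2-fold change, and a level is compared only with the same gene on other arrays. Array medians lay between 2.52 and 2.63. Controls of 1 line correlated with each other at 0.959 to 0.981 over all genes tested, and each TNF array correlated with its own line's controls at 0.930 to 0.947. RMA as usually run equalises the arrays' distributions, so a shift of all genes together would not be seen. These are bulk samples, in which fewer cycling cells and less RNA per cell cannot be told apart.

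**Figure D1:**
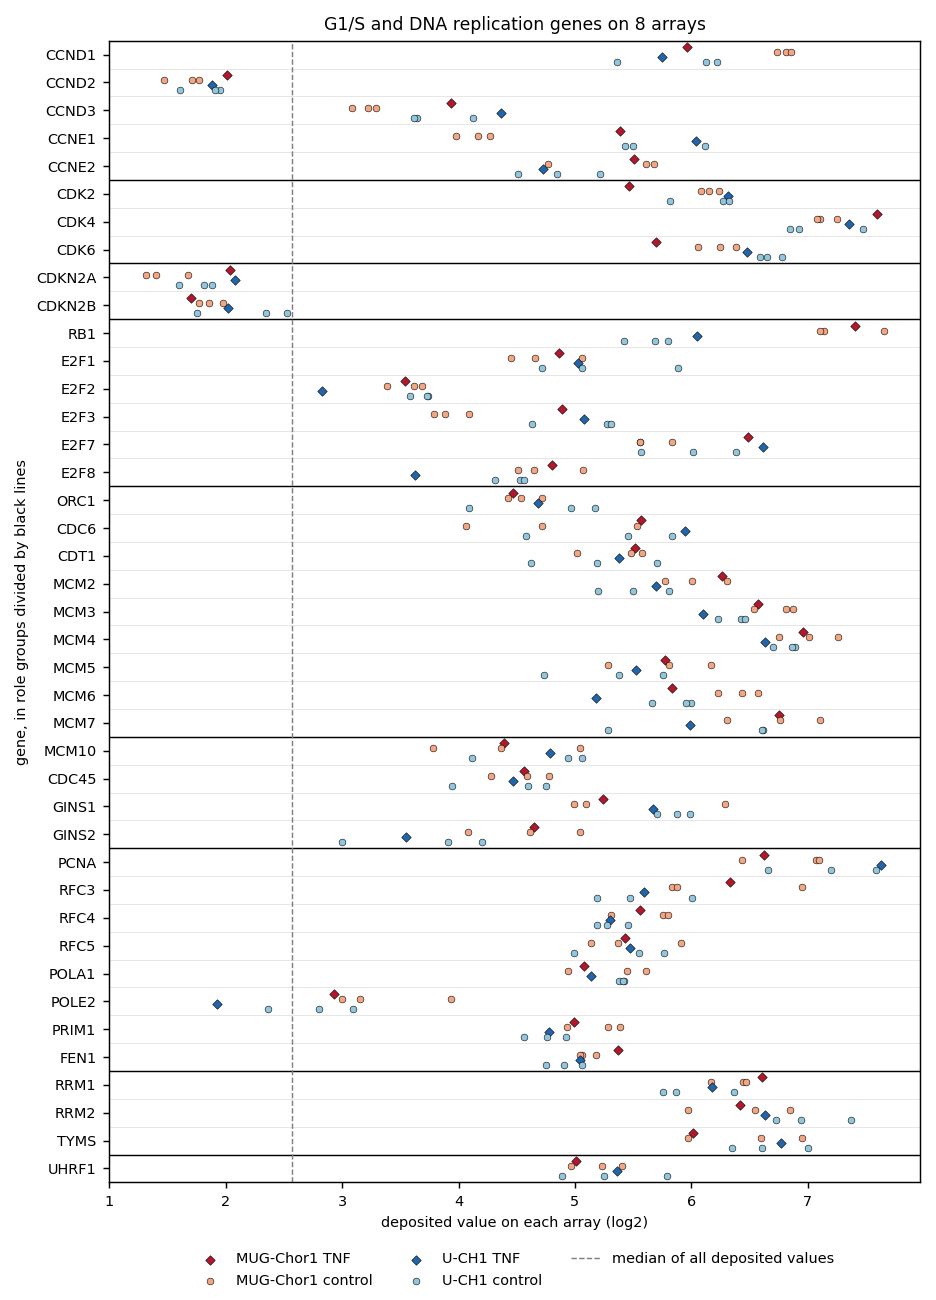
Deposited log2 value (horizontal axis) of the 41 genes on the array (vertical axis, in role groups) on each of 8 arrays; diamonds are TNF arrays and circles are controls, and the dashed line is the median of all deposited values, 2.57. CCND2, CDKN2A and CDKN2B lie left of the line on all 8 arrays, and POLE2 lies near it.

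The first comparison asked how the control lines differ. Between MUG-Chor1 and U-CH1 controls, 4 of the 38 genes passed the test (10.5%), against 18.9% of all genes tested, and all 4 are G1/S genes. RB1 and CCND1 were higher in MUG-Chor1, and CCNE1 and E2F3 were lower. Over all genes tested, 10.3% were higher and 8.57% lower in MUG-Chor1. Tests here and below are limma's, with Benjamini-Hochberg adjustment over all 16986 genes and a threshold of 0.05.

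RB1, the pocket protein that holds E2F in check, had 7.14, 7.10 and 7.65 in MUG-Chor1 controls, against 5.42, 5.69 and 5.80 in U-CH1 controls. Every MUG-Chor1 control lay above every U-CH1 control. The means were 7.30 ± 0.31 in MUG-Chor1 and 5.64 ± 0.20 in U-CH1 (SD, n = 3 each), a log2 difference of 1.66 ± 0.22 (SE; 95% interval 1.18 to 2.14), or 3.17-fold, with an adjusted p of 0.000487.

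CCND1 encodes cyclin D1, a partner of CDK4 and CDK6. It had 6.81, 6.86 and 6.73 in MUG-Chor1 controls, against 6.13, 5.36 and 6.22 in U-CH1 controls. The groups did not overlap, and U-CH1 control 2 was the lowest of the 6. The difference was 0.90 ± 0.24 (SE), or 1.86-fold, with an adjusted p of 0.0267. This call was lost without U-CH1 control 2 (0.63, adjusted p 0.0622), without MUG-Chor1 control 1 (0.89, adjusted p 0.0802) and without MUG-Chor1 control 2 (0.87, adjusted p 0.0790).

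CCNE1, cyclin E1, which activates CDK2, had 3.98, 4.27 and 4.17 in MUG-Chor1 controls, against 5.43, 5.50 and 6.12 in U-CH1 controls. The log2 difference was -1.54 ± 0.23 (SE), or 2.91-fold lower in MUG-Chor1, with an adjusted p of 0.00101. The activating factor E2F3 had 3.79, 3.88 and 4.09 in MUG-Chor1 controls, against 5.28, 4.63 and 5.31 in U-CH1 controls. Neither gene's groups overlapped. E2F3 differed by -1.15 ± 0.23 (SE), or 2.23-fold lower in MUG-Chor1, with an adjusted p of 0.00575.

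**Figure D2:**
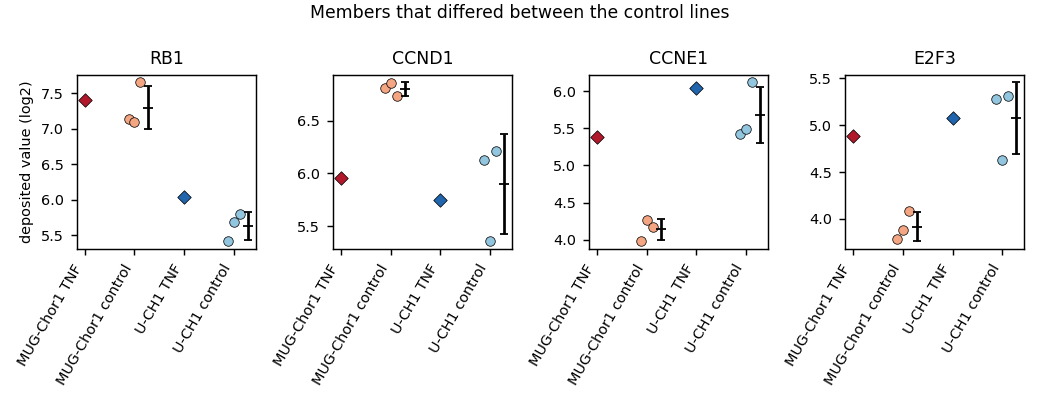
Deposited log2 value (vertical axes, which do not start at 0) of the 4 genes that differed between control lines, by group; points are arrays, and the bar beside each control group is the mean and SD of 3 arrays. RB1 and CCND1 are higher in MUG-Chor1 controls and CCNE1 and E2F3 lower, and the MUG-Chor1 TNF array has 5.39 for CCNE1 and 4.89 for E2F3, above all 3 of its controls.

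The other G1/S genes tested did not pass. CDK4 differed by 0.06 (95% interval -0.42 to 0.54) between MUG-Chor1 and U-CH1 controls, and CDK6 by -0.44 (-0.86 to -0.03, adjusted p 0.130). CCND3, another D-type cyclin, differed by -0.59 (adjusted p 0.0696). None of the 25 replication genes passed in limma; at an unadjusted p under 0.05, MCM2, MCM6, GINS2 and PRIM1 were higher in MUG-Chor1 and none was lower, against 31.7% of all genes tested in either direction. The median difference was 0.19 over the replication genes and -0.04 over all genes tested. Single arrays weigh on such medians. U-CH1 control 2 was its line's lowest control for 20 of the 25 replication genes, and MUG-Chor1 control 1 for 23. Over all 38 genes the median was 0.09. It was -0.09 without U-CH1 control 2 and 0.21 without MUG-Chor1 control 1. GINS2, a subunit of the GINS complex of the active helicase, had the largest value, 0.88 (0.14 to 1.61, adjusted p 0.0949). RRM2, a subunit of ribonucleotide reductase, had the lowest, -0.56 (adjusted p 0.174). For 15 of the 25 the 95% interval lay within 1 log2 unit either side of 0, so for those a change of 2-fold or more is outside the interval.

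**Figure D3:**
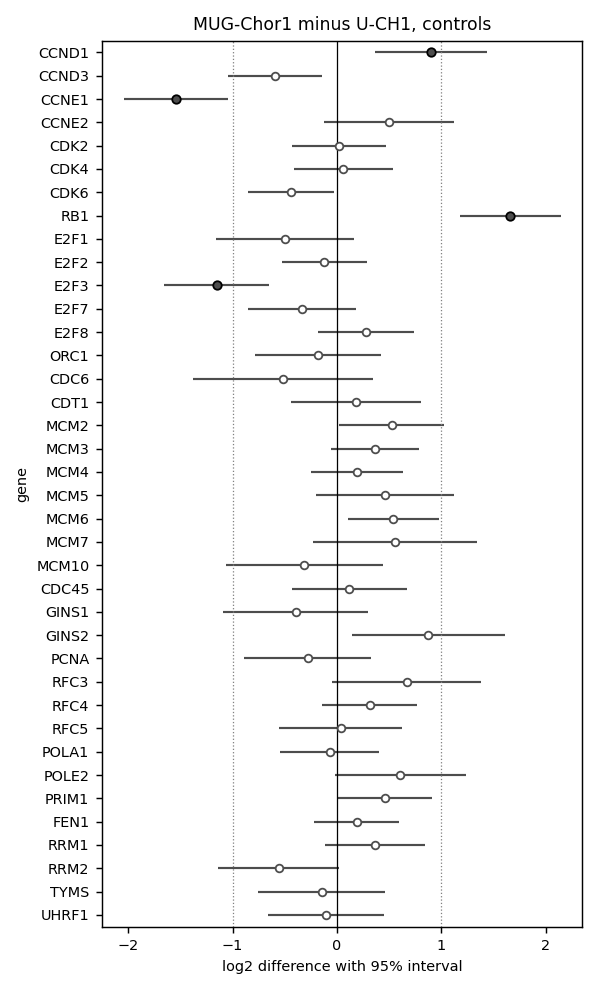
Log2 difference, MUG-Chor1 minus U-CH1 controls (horizontal axis), with 95% intervals for the 38 genes tested (vertical axis); filled points passed the test and dotted lines mark 2-fold. RB1 and CCND1 are filled to the right and CCNE1 and E2F3 to the left, while no replication gene is filled.

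The INK4 genes were too low to pass the filter on low values. CDKN2A, which encodes p16INK4a and ARF, had values between 1.31 and 2.08 over the 8 arrays, and CDKN2B, which encodes p15INK4b, between 1.70 and 2.53. CCND2, cyclin D2, had values between 1.47 and 2.01. All 3 lay below the median of deposited values on every array, and no detection call was available. With no filter on low values, none of the 3 passed in any comparison. Among the genes beside CDKN2A and CDKN2B, MTAP, which exceeded 2.57 on 1 array, had 1.65 to 2.12 in MUG-Chor1 controls and 1.99 to 2.96 in U-CH1 controls, a difference of -0.46 (adjusted p 0.275). KLHL9 was lower in MUG-Chor1 controls, with 2.24 ± 0.17, against 4.73 ± 0.34 in U-CH1 controls (SD, n = 3 each; log2 difference -2.49, adjusted p 4.00e-05). DMRTA1 was also lower, with 2.50 ± 0.32 in MUG-Chor1 controls and 3.81 ± 0.26 in U-CH1 controls (-1.31, adjusted p 0.00266). In MUG-Chor1 controls these neighbours lay near or below 2.57, and copy number was not measured. On the MUG-Chor1 TNF array KLHL9 had 2.99, above its controls at 2.09 to 2.43 (adjusted p 0.338 in limma). On the U-CH1 TNF array it had 3.80, below its controls at 4.37 to 5.03 (adjusted p 0.261).

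The second comparison asked whether the replication programme moved after a week of TNF-α. None of the 38 genes passed the limma test in MUG-Chor1, where 2.88% of all genes did, and none passed in U-CH1, where 1.27% did. The replication genes had a median difference of -0.05 in MUG-Chor1 (10 higher, 15 lower) and 0.03 in U-CH1 (14 higher, 11 lower). Medians over all genes tested were 0.06 in MUG-Chor1 and 0.04 in U-CH1. With 1 TNF array a line, no gene with a change smaller than 1.11 in MUG-Chor1 or 1.25 in U-CH1 was called. These are the smallest called changes among all genes tested, and genes whose controls varied more needed larger ones. CCNE1 in MUG-Chor1, at 1.25, was not called. Smaller shifts were thus not detectable gene by gene, and the limit was higher for many genes. The 95% interval lay within 1 log2 unit of 0 for 14 of the 25 replication genes in MUG-Chor1 and for 13 of 25 in U-CH1.

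**Figure D4:**
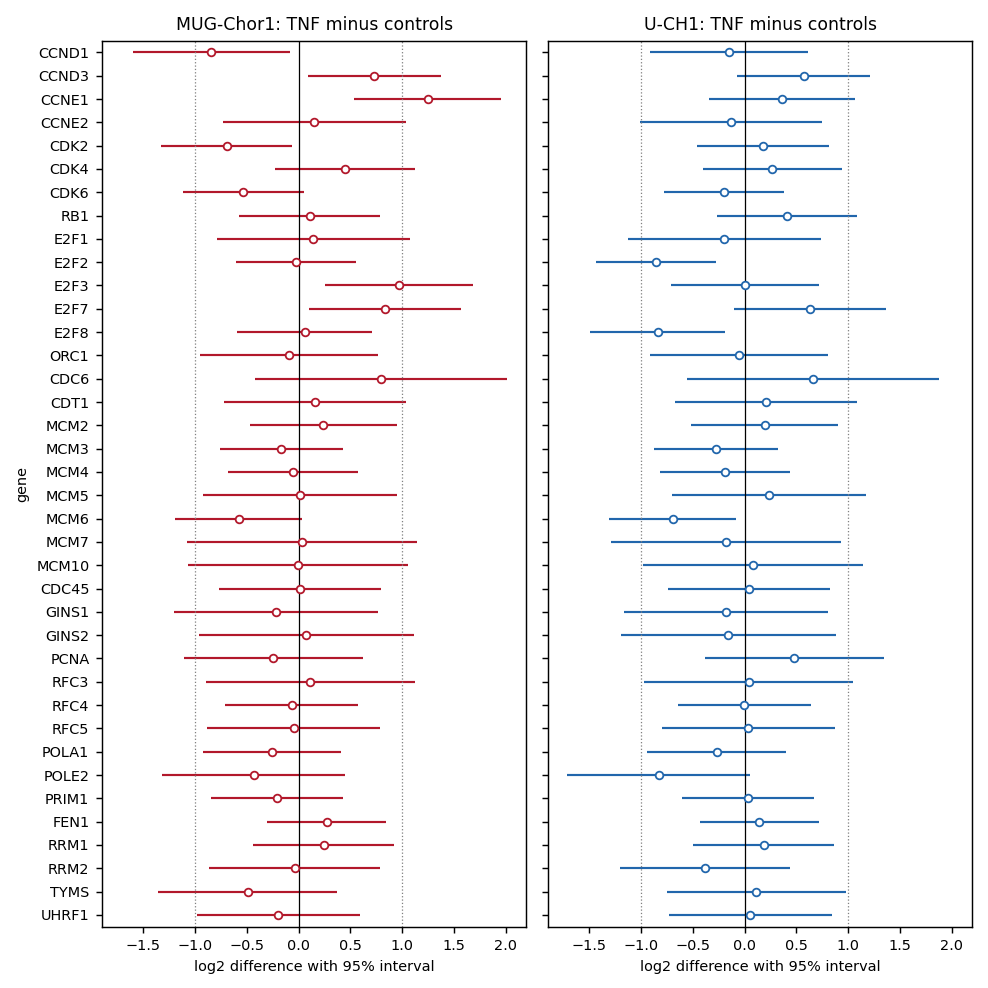
Log2 difference, TNF array minus the line's 3 controls (horizontal axes), with 95% intervals for the 38 genes tested (vertical axis), MUG-Chor1 left and U-CH1 right; dotted lines mark 2-fold. No point is filled, since none passed the test; CCNE1 in MUG-Chor1 lies farthest from 0, at 1.25.

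Among cyclins and kinases in MUG-Chor1, CCNE1 came nearest to the threshold. It had 5.39 on the MUG-Chor1 TNF array, against 3.98, 4.27 and 4.17 in MUG-Chor1 controls, a difference of 1.25 ± 0.32 (SE; 95% interval 0.54 to 1.95) with an adjusted p of 0.0750. It passed when U-CH1 control 3 was left out of the estimate of spread (adjusted p 0.0411). CCNE1 had 6.04 on the U-CH1 TNF array, against 5.43, 5.50 and 6.12 in U-CH1 controls, within their range. CCND1 had 5.96 on the MUG-Chor1 TNF array, below its MUG-Chor1 controls (-0.84, adjusted p 0.327), and 5.75 on the U-CH1 TNF array, within its U-CH1 controls (-0.15, adjusted p 0.950). The comparison between lines and the TNF comparison in MUG-Chor1 share the MUG-Chor1 controls.

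CDK2 had 5.46 on the MUG-Chor1 TNF array, against 6.08, 6.15 and 6.24 in MUG-Chor1 controls (-0.69, adjusted p 0.336). It had 6.31 on the U-CH1 TNF array, against 6.27, 5.81 and 6.33 in U-CH1 controls. The MUG-Chor1 TNF array thus lay below all 3 of its controls and the U-CH1 TNF array among its own. CCND3 had 3.93 on the MUG-Chor1 TNF array, against 3.09 to 3.29 in MUG-Chor1 controls, and 4.36 on the U-CH1 TNF array, against 3.61 to 4.12 in U-CH1 controls. Both TNF arrays lay above their controls for CCND3, by 0.73 in MUG-Chor1 (adjusted p 0.304) and 0.57 in U-CH1 (adjusted p 0.533).

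RB1 had 7.41 on the MUG-Chor1 TNF array, among its controls, and 6.05 on the U-CH1 TNF array, above its 3 controls (0.41, adjusted p 0.737). E2F3 had 4.89 on the MUG-Chor1 TNF array, above its 3 controls (0.97, adjusted p 0.190), and 5.08 on the U-CH1 TNF array, within its controls. E2F2, another activating E2F, had 2.83 on the U-CH1 TNF array, against 3.58 to 3.74 in U-CH1 controls, the smallest p of the 38 genes in U-CH1 (-0.86, unadjusted p 0.00793, adjusted p 0.198). The repressor E2F7 lay above all controls in both lines, by 0.84 in MUG-Chor1 (adjusted p 0.302) and 0.63 in U-CH1 (adjusted p 0.554). The other repressor, E2F8, did not share that order. It differed by 0.06 in MUG-Chor1 and by -0.84 in U-CH1 (adjusted p 0.288).

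At an unadjusted p under 0.05, the MUG-Chor1 comparison held 4 of the 38 genes with a higher TNF value (CCNE1, CCND3, E2F3 and E2F7) and 2 with a lower one (CCND1 and CDK2), against 12.6% of all genes tested. All 6 are G1/S genes, and 0 of the 25 replication genes reached it. The U-CH1 comparison held 3 lower (E2F2, E2F8 and MCM6) and none higher, against 10.8% of all genes tested. In MUG-Chor1 the TNF array lay outside the range of its 3 controls for 5 of 25 replication genes, 3 above and 2 below (20%, against 59.2% of all genes tested). In U-CH1 it did for 9 of 25, 2 above and 7 below (36%, against 54.3%). How many of all genes lay outside on the same side in both lines was not counted. No such share can therefore be set beside genes like CCND3, E2F7 and MCM6, which did.

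MCM6, a subunit of the licensed helicase MCM2-7, had the smallest p of the licensing genes. It had 5.84 on the MUG-Chor1 TNF array, against 6.23, 6.58 and 6.44 in MUG-Chor1 controls, and 5.18 on the U-CH1 TNF array, against 5.66, 6.0 and 5.96 in U-CH1 controls. Both TNF arrays lay below all of their controls, by 0.58 in MUG-Chor1 (adjusted p 0.434) and 0.70 in U-CH1 (adjusted p 0.370). The other 5 subunits differed by -0.17 (MCM3) to 0.24 (MCM2) in MUG-Chor1 and by -0.28 (MCM3) to 0.24 (MCM5) in U-CH1. CDC6, which loads the helicase, lay above all controls in both lines, with 5.56 on the MUG-Chor1 TNF array, against 4.06, 4.72 and 5.53 in MUG-Chor1 controls, and 5.95 on the U-CH1 TNF array, against 5.83, 4.58 and 5.46 in U-CH1 controls. In each line its distance above the highest control is small beside the controls' own range, and neither difference passed (adjusted p 0.661 for MUG-Chor1, 0.778 for U-CH1).

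GINS2 had 4.65 on the MUG-Chor1 TNF array, against 4.08, 5.04 and 4.61 in MUG-Chor1 controls, and 3.54 on the U-CH1 TNF array, against 3.91, 3.00 and 4.20 in U-CH1 controls. POLE2, a subunit of the leading-strand polymerase, had 2.93 on the MUG-Chor1 TNF array, against 3.00, 3.16 and 3.93 in MUG-Chor1 controls, and 1.93 on the U-CH1 TNF array, against 3.09, 2.37 and 2.80 in U-CH1 controls. GINS2 lay among its controls in both lines and POLE2 below them in both, with values near the median of the array. RRM2 had 6.42 on the MUG-Chor1 TNF array, against 5.97, 6.54 and 6.85 in MUG-Chor1 controls, and 6.64 on the U-CH1 TNF array, against 6.95, 6.73 and 7.37 in U-CH1 controls. UHRF1, which brings maintenance methylation to newly copied DNA, had 5.01 on the MUG-Chor1 TNF array, against 4.96, 5.23 and 5.41 in MUG-Chor1 controls, and 5.36 on the U-CH1 TNF array, against 5.79, 4.89 and 5.25 in U-CH1 controls. UHRF1 lay among its controls in both lines, and RRM2 did so in MUG-Chor1 but lay just below its controls in U-CH1.

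For most replication genes, the range of a line's controls exceeded the distance of its TNF array from their mean. That also held for most of all genes tested (65.5% in MUG-Chor1 and 71.6% in U-CH1), since a range of 3 arrays tends to be the larger measure. Each control was set against the mean of its line's other 2 controls. For each gene the deviations of a line's 3 controls cancel out, so they are not separate observations. Such a deviation is also larger than one from the mean of all 3, the measure used for the TNF arrays. In MUG-Chor1, control 1 had a median deviation of -0.51 over the 25 replication genes, with all 25 lower, and control 3 had 0.38, with all 25 higher, while control 2 had 0.08. In U-CH1, control 2 had -0.46, with 21 of 25 lower, while control 1 had 0.25 and control 3 had 0.13. Medians over all genes tested lay between -0.04 and 0.06 for the 8 arrays. The TNF arrays, set against the mean of their 3 controls, had -0.05 in MUG-Chor1 and 0.03 in U-CH1. The genes of an array share 1 RNA sample and are not independent, so these counts describe the arrays and no test was made.

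**Figure D5:**
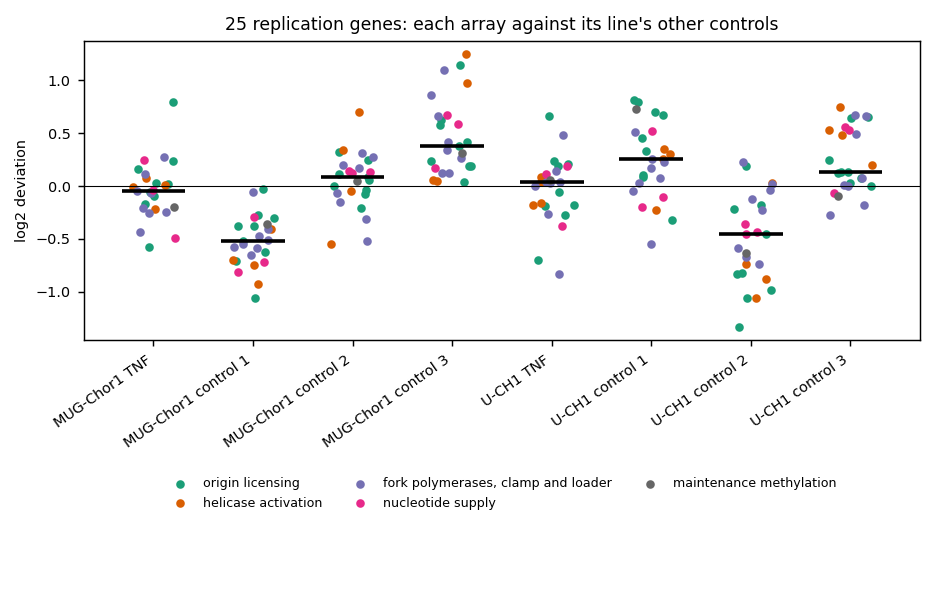
Log2 deviation (vertical axis) of the 25 replication genes on each of 8 arrays (horizontal axis); a control is set against the mean of its line's other 2 controls and a TNF array against the mean of its 3, points are genes coloured by role and black bars are medians. MUG-Chor1 control 1 (median -0.51) and U-CH1 control 2 (-0.46) lie low and MUG-Chor1 control 3 (0.38) lies high, while both TNF arrays are centred near 0.

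MUG-Chor1 control 1 was the lowest of its line's 3 controls for 23 of the 25 replication genes, against 29.6% of all genes tested, and MUG-Chor1 control 3 the highest for 20, against 38.4%. U-CH1 control 2 was the lowest for 20 of 25, against 37.3% of all genes tested. The pooled SD of the controls had a median of 0.400 over the replication genes, 0.258 over the 13 G1/S genes and 0.263 over all genes tested. CDC6 had the largest, 0.690. MCM7 is a second case, chosen after its values were seen. It had 6.76 on the MUG-Chor1 TNF array, against 6.31, 6.76 and 7.11 in MUG-Chor1 controls, and 5.99 on the U-CH1 TNF array, against 6.62, 5.28 and 6.61 in U-CH1 controls. MCM10, which helps to start the helicase, was chosen the same way and had 4.39 on the MUG-Chor1 TNF array, against 3.78, 4.37 and 5.04 in MUG-Chor1 controls, and 4.79 on the U-CH1 TNF array, against 4.94, 4.12 and 5.06 in U-CH1 controls. For both genes the TNF array lay between the lowest and the highest control in each line.

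In MUG-Chor1 the range of the 3 controls exceeded the size of the TNF difference for 23 of the 25 replication genes (92%, against 65.5% of all genes tested), with a median range of 0.662 and a median TNF difference of 0.166 in size. In U-CH1 it did for 21 of 25 (84%, against 71.6%), with medians of 0.727 and 0.182. For the 13 G1/S genes the counts were 5 in MUG-Chor1 and 8 in U-CH1. The sign of the replication genes' median TNF difference turned with the control left out. In MUG-Chor1 it was -0.22 without control 1 (4 higher, 21 lower) and 0.09 without control 3 (16 higher, 9 lower). In U-CH1 it was -0.17 without control 2 (7 higher, 18 lower) and 0.09 without control 1 (15 higher, 10 lower).

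Genes of the later G2 phase and mitosis had a different order of arrays in MUG-Chor1, while in U-CH1 control 2 was again the lowest. Over 15 such genes the median deviation was -1.20 on the MUG-Chor1 TNF array, and -0.08, -0.89 and 0.99 on MUG-Chor1 controls 1, 2 and 3. On the U-CH1 TNF array it was 0.14, and on U-CH1 controls 1, 2 and 3 it was 0.30, -0.40 and 0.31. None of the 15 passed limma's test in either line; at an unadjusted p under 0.05, 11 of 15 were lower in MUG-Chor1 and 0 in U-CH1, against 5.17% of all genes tested lower in MUG-Chor1 and 3.8% in U-CH1. PLK1, a mitotic kinase, had 4.68 on the MUG-Chor1 TNF array, against 6.70, 6.40 and 7.89 in MUG-Chor1 controls (-2.31, adjusted p 0.0684). It lay below all 3 MUG-Chor1 controls, and on the U-CH1 TNF array, at 7.12, among its controls. MUG-Chor1 control 3 was thus high for both groups of genes, while control 1 was low for replication genes and near 0 for G2 and mitosis.

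The TNF effects were also compared between lines, as the effect in MUG-Chor1 minus that in U-CH1. None of the 38 genes passed in limma, against 0.53% of all genes tested, and at an unadjusted p under 0.05 only E2F2 was among them (0.83, adjusted p 0.672), against 7.36%. The interval lay within 1 log2 unit of 0 for only 5 of 38, so most of these differences were poorly measured. CCNE1 differed by 0.88 (95% interval -0.12 to 1.89) and MCM6 by 0.12 (-0.75 to 0.99).

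With both lines fitted together, so that the TNF arrays count as 2 replicates, none of the 38 genes passed, against 2.48% of all genes tested. The smallest p was that of MCM6, which differed by -0.64 ± 0.19 (SE; 95% interval -1.05 to -0.22) with an adjusted p of 0.113. At an unadjusted p under 0.05, CCND3 (0.65), CCNE1 (0.80) and E2F7 (0.73) had higher values and MCM6 and POLE2 (-0.63) lower ones, against 15.3% of all genes tested. Their adjusted p-values lay between 0.113 and 0.311. Over the 25 replication genes the median was -0.04, and 22 of 25 intervals lay within 1 log2 unit of 0. This fit assumes 1 TNF effect shared by both lines, in which opposite effects cancel. For those 22, only a shared change of 2-fold or more lies outside the interval. In the single lines that held for 14 of 25 in MUG-Chor1 and 13 of 25 in U-CH1.

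Other replication and S phase genes, 43 listed and 41 tested, gave 0 calls in each TNF comparison, against 2.88% of all genes tested in MUG-Chor1 and 1.27% in U-CH1. Their medians were 0.11 in MUG-Chor1 and -0.04 in U-CH1, and at an unadjusted p under 0.05, 3 were higher in MUG-Chor1 and 1 lower in U-CH1, against 12.6% of all genes tested in MUG-Chor1 and 10.8% in U-CH1, in either direction. The smallest p-values were those of GINS3 in MUG-Chor1 (1.00, adjusted p 0.205), of RFC1 in U-CH1 (-0.61, adjusted p 0.439) and of the checkpoint mediator CLSPN over both lines (0.82, adjusted p 0.114). Between control lines 2 of the 41 passed, against 18.9% of all genes tested. POLD3, a subunit of polymerase delta, was higher in MUG-Chor1 controls (0.78, adjusted p 0.0499, just under the threshold). GMNN, the licensing inhibitor geminin, was lower there (-1.09, adjusted p 0.0128). Neither call was followed with an array left out.

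Among 18 other G1/S regulators, 3 differed between control lines, a share near the 18.9% of all genes tested. MYC, a transcription factor that drives entry into the cycle, had 6.06 ± 0.34 in MUG-Chor1 controls and 3.33 ± 0.37 in U-CH1 controls (SD, n = 3 each; log2 difference 2.73, or 6.65-fold, adjusted p 4.88e-05). TFDP2, a dimerisation partner of E2F proteins, was higher in MUG-Chor1 (0.86, adjusted p 0.0270), and E2F5 was lower (-1.01, adjusted p 0.0268), with MUG-Chor1 control values below 2.57. None of the 18 passed in a TNF comparison. The smallest p-values were those of SKP2, which directs the breakdown of CDK inhibitors, in MUG-Chor1 (-0.79, adjusted p 0.225) and of the CDK inhibitor CDKN1A in U-CH1 (1.18, adjusted p 0.272). At an unadjusted p under 0.05, 1 of the 18 was lower in MUG-Chor1 and 1 higher in U-CH1, against the same 12.6% in MUG-Chor1 and 10.8% in U-CH1.

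Several markers of cell type moved with TNF, and those of chordoma moved more in MUG-Chor1 than in U-CH1. All 7 markers of chordoma and notochord lay above 2.57 on all 8 arrays, with a summed log2 level of 40.0 on the MUG-Chor1 TNF array, against 55.3 to 57.2 in MUG-Chor1 controls, and 53.2 on the U-CH1 TNF array, against 55.6 to 58.7 in U-CH1 controls. TBXT, the notochord factor brachyury, fell by 1.92 in MUG-Chor1 (adjusted p 0.00541). There 5 of the 7 passed lower, TBXT included, against 2.88% of all genes tested in either direction. None of the 7 passed in U-CH1, against 1.27%, but all 7 had lower TNF values there, with a median of -0.61. At an unadjusted p under 0.05, 3 of the 7 were lower in U-CH1, against 3.8% of all genes tested. With both lines fitted together, 3 of the 7 passed lower, against 2.48% of all genes tested. Of 7 fibroblast markers, 6 were on the array, with a sum of 27.5 on the MUG-Chor1 TNF array, against 21.4 to 26.1 in MUG-Chor1 controls, and 27.5 on the U-CH1 TNF array, against 25.5 to 27.6 in U-CH1 controls. The matrix genes LUM (by 3.65) and DCN (by 1.60) rose in MUG-Chor1. The other 4 there did not pass and had lower TNF values, with differences of -0.57 for COL1A1, -0.07 for COL1A2, -0.56 for PDGFRB and -0.81 for THY1, and no fibroblast marker passed in U-CH1. The leukocyte markers PTPRC and CD3E lay below 2.57 on every array. The 5 leukocyte markers on the array summed to 16.7 on each TNF array. Their sums were 15.2 to 15.9 in MUG-Chor1 controls and 14.8 to 15.1 in U-CH1 controls. CD68 had 9.17 on the MUG-Chor1 TNF array, against 8.02 to 8.25 in MUG-Chor1 controls. On the U-CH1 TNF array CD68 had 8.48, against 7.67 to 8.05 in U-CH1 controls. ITGAM also lay above its controls in both lines, and LYZ lay among them. With both lines fitted together, CD68 and ITGAM passed higher, 2 of the 3 tested, against 2.48% of all genes tested. None of the 3 passed in a single line. The 3 endothelial markers on the array summed to 9.66 on the MUG-Chor1 TNF array, against 11.2 to 12.8 in MUG-Chor1 controls, and 9.32 on the U-CH1 TNF array, against 9.39 to 10.3 in U-CH1 controls. In MUG-Chor1 only KDR of the 3 passed (-2.37, adjusted p 0.0121), while CDH5 differed by -0.37 and VWF by 0.43. The part of these shifts in the G1/S values of MUG-Chor1 was not tested.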

How the data were processed

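The deposited log2 values were used as given, 1 per probe set and array (53617 probe sets, 8 arrays). The submitters' processing notes list RMA and Transcriptome Analysis Console and give no versions. The authors' log base was taken as log2 because RMA gives log2; neither it nor the array's genome build is stated in the sources used here. Probe sets were named through the platform annotation, 23871 with 1 symbol, 1842 with several and 27904 not listed, and 90 symbols were updated by Entrez identifier through the RefSeq table. For the 632 genes with several such probe sets the brightest on average was used. Genes at or below 2.57 on all arrays were not tested. No detection calls, scanner files or scan dates were used here, so any array batch confounded with treatment cannot be told apart from TNF, and precision is limited by the number of arrays.

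The tests used R 4.3.3 and limma 3.58.1, with lmFit followed by eBayes; they were two-sided and adjusted by Benjamini-Hochberg over 16986 genes, with a threshold of 0.05. Models had 4 group means (residual df 4) or terms for line and TNF (residual df 5). A line's single TNF array is assumed to vary like the controls. The scripts were tested on simulated data.

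The members and lists were chosen with earlier results of these data known. Values on every array are given for members past the threshold in any comparison, and for the member with the smallest p of each role group otherwise; further members were chosen after their values were seen. CDKN2C, DCK, BUB1B, CDKN2B-AS1, COL3A1 and PECAM1 had no single-symbol probe set, and some other list genes are not reported here. Controls with the same number in the lines had deviations from their line's mean that correlated at 0.04, -0.06 and 0.16 over genes, so the numbers were not taken to pair them. Alternatives covered the filter, probe sets, normalization, variance model, the arrays fitted, a replicate block and each array left out.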

Additional observations from a re-analysis of the deposited data

How the results depend on the processing

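The members' median difference ranged over all alternatives from -0.09 to 0.21 between control lines, -0.18 to 0.17 for TNF in MUG-Chor1, -0.18 to 0.11 for TNF in U-CH1, -0.07 to 0.20 for the difference between lines and -0.11 to 0.05 over both lines, beside an SD of 0.320 of that median over the 6 controls. No result changed direction past the threshold. RB1, CCNE1 and E2F3 kept their calls under every alternative run; with each control left out in turn, their adjusted p-values reached at most 0.00413, 0.00711 and 0.0295. CCND1 lost its call without U-CH1 control 2, MUG-Chor1 control 1 or MUG-Chor1 control 2, so members called higher numbered 1 to 2. GINS1 was called lower without MUG-Chor1 control 3 (-0.81, adjusted p 0.0228). For TNF in MUG-Chor1, members called higher numbered 0 to 1 with an array left out, the 1 being CCNE1 without U-CH1 control 3. Over all genes, counts of calls moved more with an array left out: 2123 (without MUG-Chor1 control 1) to 3090 between control lines, 284 (without MUG-Chor1 control 1) to 664 for TNF in MUG-Chor1, 104 (without U-CH1 control 2) to 329 (without MUG-Chor1 control 3) for TNF in U-CH1, 38 (without U-CH1 control 3) to 152 (without MUG-Chor1 control 3) for the difference, and 199 (without MUG-Chor1 control 1) to 489 over both lines, with 216 there without the MUG-Chor1 TNF array. A fit of the 4 arrays of MUG-Chor1 gave 296. Each of these fits had fewer arrays, and the cause of the shifts was not tested. With the control number as a replicate block, 3248 genes differed between lines, against 3209 without it, and the members called were 2 higher and 2 lower in both fits. For TNF no paired fit was possible because each line has 1 TNF array, whose number names no control. No detection call was available, so signal over background sets no limit that could be given here.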
